A study of Mus musculus with 7 samples.

Results

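Histone gene expression was examined in skin papillomas of mice with and without inducible *Nanog*. The members were all genes of the Hist1, Hist2, Hist3 and Hist4 clusters together with the 7 histone genes *H1f0*, *H1fx*, *H2afx*, *H2afz*, *H2afy*, *H3f3a* and *H3f3b*, taken by gene symbol. There were 74 such symbols among 23284, of which 67 lay in the clusters. The family was chosen by inspection of FPKM (fragments per kilobase of transcript, scaled to the number of mapped fragments of the library) in TG against CTR papillomas of these same libraries, where *H1fx* stood among the lower genes, so differences between TG and CTR are given for the members as a description and without a p-value.

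Both groups carried a doxycycline-responsive *Nanog* cassette at the *Col1a1* locus. TG mice (n = 3) also had *K5-rtTA*, in which the bovine keratin 5 promoter drives the transactivator in basal keratinocytes, and CTR littermates (n = 4) lacked it. All mice, on a C57Bl/6 background, received DMBA, TPA and doxycycline at 2 mg/ml in the drinking water. Mice were 8 to 10 weeks old at the start, and TPA was applied for 15 weeks with a further observation period of up to 15 weeks. Papillomas were taken when the protocol ended or earlier, at a humane endpoint. Which of the 2 applied to each papilloma is not given in the sources used here, so age at collection may differ between mice and groups. Each library was 1 papilloma of a different mouse, made from poly(A)+ RNA.

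*Nanog* was between 2.70 and 12.7 FPKM in the CTR papillomas and between 36.9 and 66.9 FPKM in the TG papillomas. The read numbers implied by the Cufflinks intervals totalled 10074859 to 10671027 in 5 libraries, and were higher in CTR 3 (15622165) and TG 1 (15710562). Basal keratinocyte markers (*Krt5*, *Krt14*, *Trp63*, *Itga6*, *Col17a1*) were high in every papilloma, with a summed level of 6595 to 9823 FPKM in CTR and 12901, 8899 and 6775 FPKM in TG 1, TG 2 and TG 3. In TG 3, 3 of the 5 lay above every CTR papilloma, whereas *Krt14*, which makes up most of the sum, lay below. TG 3 stood apart from the other 6 libraries. Its 6 skeletal muscle markers summed to 521 FPKM against 0.538 to 1.02 FPKM in CTR, its 6 fibroblast markers to 678 FPKM against 73.5 to 129 FPKM, and all 12 lay above every CTR papilloma. The differentiated keratinocyte markers in the table, 4 of the 5 listed, summed to 716 FPKM in TG 3, to 6155 and 7240 FPKM in TG 1 and TG 2, and to 2276 to 3337 FPKM in CTR. In TG 3 *Krt1*, *Krt10* and *Lor* were below every CTR papilloma. *Ivl* went the other way, at 36.4 FPKM in TG 3 against 17.7 to 26.8 FPKM in CTR. The endothelium and leukocyte markers of TG 3 summed to 20.0 and 34.8 FPKM, against 4.63 to 8.55 and 17.8 to 22.5 FPKM in CTR. All 4 endothelium markers but only 3 of the 5 leukocyte markers lay above every CTR papilloma. Of its 4 adipocyte markers 3 lay above every CTR papilloma. These were *Adipoq* at 3.34 FPKM and *Plin1* at 0.824 FPKM, both listed at 0 in CTR, and *Cfd* at 26.0 FPKM against at most 0.0484 FPKM, whereas *Fabp4*, at 1680 FPKM, was within the CTR range of 1374 to 3228 FPKM. Values without TG 3 are given beside each result that turns on it.

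Histones package DNA. Core histones H2A, H2B, H3 and H4 form the nucleosome and the linker histone H1 binds the DNA between nucleosomes. The clustered genes are expressed in S phase, when new chromatin is assembled, and their mRNAs typically end in a conserved stem-loop in place of a poly(A) tail. The genes outside the clusters, which encode H1.0, H1x, H2A.X, H2A.Z, macroH2A1 and H3.3, supply histones outside S phase as well, mostly from mRNAs that carry a poly(A) tail. Because these libraries were selected for poly(A)+ RNA, a low cluster value here is a level in poly(A)+ RNA and does not measure transcripts without a tail.

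The transcript ends were read from GENCODE M21 (GRCm38), taking the longest protein-coding transcript where there was more than 1. All 74 members were matched. The histone stem-loop, a run of 16 bases searched on the transcript strand, was found in 45 of the 67 cluster members, against 64 of all 21877 protein-coding genes (0.293%). Of the 22 cluster members without it, 15 have models with fewer than 30 bases after the coding part and 1 is a pseudogene, so most had hardly any end to search. The following 30-base windows, each with the stem-loop in capitals, come from genes of different histone types, with *H2afx* from outside the clusters. The search fixed or limited the letter at each of the 16 bases, so the likeness of these stem-loops was given by the search.

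Hist1h1c: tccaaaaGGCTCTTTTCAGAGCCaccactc
Hist2h3c1: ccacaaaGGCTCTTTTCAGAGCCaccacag
Hist2h2ac: ccaaaaaGGCTCTTTTTAGAGCCaccaaat
Hist1h4i: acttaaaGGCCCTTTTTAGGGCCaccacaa
H2afx: ccacaaaGGCCCTTTTAAGGGCCaccacct

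In 12 cluster members the stem-loop was followed by at least 100 bases and by a poly(A) signal (AATAAA or ATTAAA) within the last 40 bases. They are *Hist1h1c*, *Hist1h1t*, *Hist1h2ae*, *Hist1h2be*, *Hist1h4a*, *Hist1h4i*, *Hist1h4j*, *Hist2h3c1*, *Hist2h4*, *Hist3h2a*, *Hist3h2ba* and *Hist4h4*. *H2afx* has both elements as well, whereas *H1f0*, *H1fx*, *H2afz* and *H3f3a* have the signal and no stem-loop. In the longest transcript of *H2afy* and of *H3f3b* neither was found. These windows hold the signal in capitals for a clustered gene with a high level, for *H2afx*, and for genes without a stem-loop.

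Hist1h1c: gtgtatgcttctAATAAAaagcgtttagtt
H2afx: tgggctaattttATTAAAggatcgtttggt
H2afz: ctctgcttactaATTAAAcagtgcatctgt
H1f0: ttaaaactttaaAATAAAactggaaaggaa
H1fx: ttcctggggcgcAATAAAcggttccaacct
H3f3a: aatttgaaaaatAATAAAagtaccaataga

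As a sum, the cluster members were far below the 7 genes outside the clusters in every papilloma. Their summed level was 88.9, 105, 105 and 86.9 FPKM in CTR 1 to CTR 4 and 138, 85.2 and 102 FPKM in TG 1 to TG 3, whereas the 7 genes outside the clusters summed to between 715 and 933 FPKM. The clusters thus held between 8.70% and 14.2% of the summed FPKM of the members, other histone variant genes not being counted. Poly(A)+ selection leaves out transcripts without a tail and so favours this order. The share and the test that follows are of poly(A)+ RNA and say nothing of total histone RNA. On the log2(FPKM + 0.5) scale the cluster sum minus the other sum was -3.08 ± 0.29 (SD, n = 7), and it was below 0 in 7 of 7 papillomas (exact sign-flip permutation test, two-sided, p = 0.0156, which is the smallest that 7 papillomas allow, adjusted p = 0.0156 over the 6 pairs of levels tested).

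Within the clusters the signal was concentrated in a pair of genes. *Hist1h2bc*, an H2B gene (chr13:23684199-23692480 in mm10), was at 24.7, 34.0, 23.5 and 23.7 FPKM in CTR and at 41.3, 22.2 and 33.2 FPKM in TG. *Hist1h1c*, which encodes the linker histone H1.2 (chr13:23738807-23740367), was at 24.7, 26.4, 28.0 and 26.2 FPKM in CTR and at 30.5, 23.4 and 22.9 FPKM in TG. Together they made up 49.1% to 57.3% of the cluster sum, and the groups overlapped for both. *Hist1h4i*, an H4 gene, followed with a mean of 4.64 FPKM, and no other cluster member had a mean above 2.26 FPKM.

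Testing was limited to genes that averaged 0.5 FPKM or more across all libraries, which held for 36 members, the 7 outside the clusters among them. Of the clustered genes 29 reached it, made up of 1 of 6 H1, 11 of 18 H2A, 13 of 18 H2B, 1 of 12 H3 and 3 of 13 H4 genes. The other 38 members were below it, and 5 of these (*Hist1h1t*, *Hist1h2ao*, *Hist1h2ap*, *Hist2h2aa1* and *Hist2h2aa2*) were listed at 0 in all libraries. For *Hist1h2ap* and *Hist2h2aa2* Cufflinks gave the status of too little data in every library, so their 0 is no measurement of the level. The loci of *Hist1h2ao* and *Hist2h2aa1* contain those of *Hist1h2ap* and *Hist2h2aa2*. Of the 40-base stretches of their transcripts 93.7% and 100% also occur in transcripts of other genes, so their 0 is uncertain too. All of these 0 values are part of the cluster sums. By type, the summed cluster level averaged 26.5 FPKM for H1, 18.1 for H2A, 43.6 for H2B, 4.33 for H3 and 9.13 for H4. The plot of level by transcript end shows how few clustered genes came near the range of the others.

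**Figure D1:**
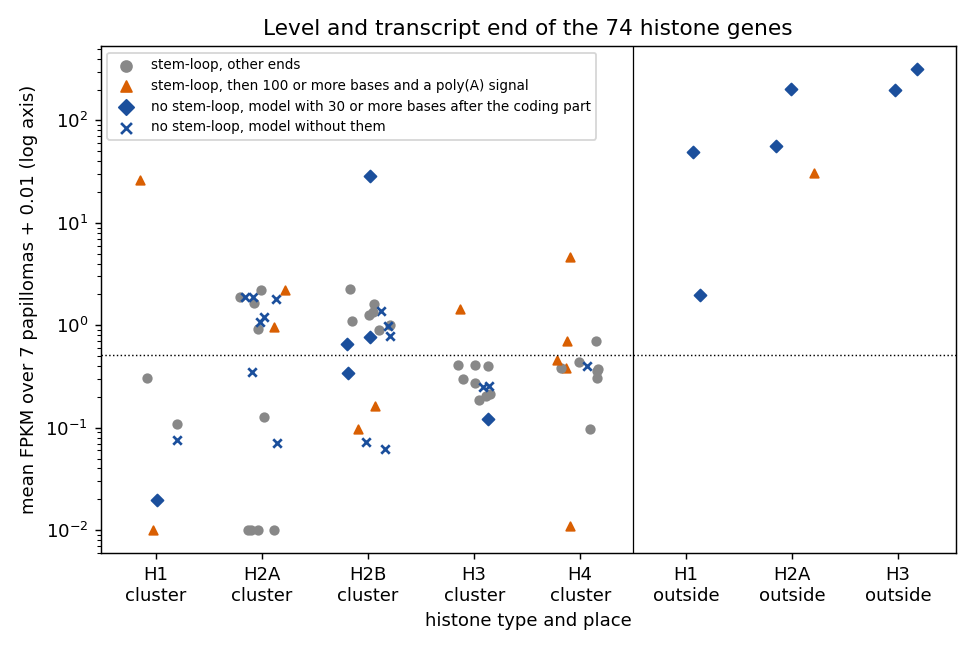
Mean FPKM over the 7 papillomas, plus 0.01 and on a log axis, for each of the 74 histone genes, by histone type and by place in or outside the clusters. Marker shapes give the transcript end annotated in GENCODE, while levels rest on UCSC models that can be shorter. The dotted line marks the level of 0.5 FPKM used for testing. Apart from *Hist1h1c* (26.0 FPKM) and *Hist1h2bc* (28.9 FPKM), all cluster members lie below 5 FPKM, while 6 of the 7 genes outside lie above 30 FPKM.

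The 12 cluster members with a stem-loop followed by a poly(A) signal had a median of 0.570 FPKM and ranged from 0 to 26.0 FPKM. For the other 55 the median was 0.388 FPKM and the highest 28.9 FPKM. The levels rest on the UCSC mm10 models that the study used with Cufflinks, whereas the ends are those of GENCODE. These can differ: *Hist1h2bh* was counted over chr13:23542972-23543352, but its GENCODE transcript has 1679 bases. Reads from an end outside the counted locus do not enter the level. Both sets therefore spanned much the same range, and the highest member of the second set was *Hist1h2bc*, whose longest model goes on for 742 bases after the coding part and in which neither element was found.

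Many of these genes are near copies of each other. Of all 40-base windows of a cluster transcript in GENCODE, 40 bases being the read length, a median of 54.5% occurred in a transcript of another gene. In 5 members all of them did. Other genes annotated over the same place, on either strand, count here too, so the shares do not measure copies alone. The share was 9.8% for *Hist1h1c*, 33.1% for *Hist1h2bc*, 31.8% for *Hist1h4i* and 73.4% for *H2afz*. Reads that matched up to 5 places were kept in the alignment. Values of *H2afz* and of single clustered H2A, H2B, H3 and H4 genes are thus uncertain beyond their counting error.

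Among the genes outside the clusters *H3f3a* was the highest in every papilloma. Together with *H3f3b*, which encodes the same H3.3 protein, it supplied between 98.7% and 99.5% of the H3 FPKM of the family. That share leaves out *Cenpa*, a centromeric H3 gene that is not a member. *H3f3a* was at 339, 309, 280 and 315 FPKM in CTR and at 282, 393 and 305 FPKM in TG. *H3f3b* was at 199, 209, 209 and 209 FPKM in CTR and at 221, 181 and 151 FPKM in TG. *H3f3b* was lower than *H3f3a* in 7 of 7 papillomas, with a difference of -0.69 ± 0.29 (SD, n = 7) on the log2(FPKM + 0.5) scale (exact sign-flip permutation test, two-sided, adjusted p = 0.0156). The ratio of *H3f3a* to *H3f3b* was 1.28, 2.17 and 2.02 in the TG papillomas and 1.34 to 1.70 in CTR, so TG papillomas lay on both sides of the CTR range. *H2afz* and *H3f3b* exchanged places between papillomas, with *H2afz* the higher in all CTR papillomas and in TG 3, and *H3f3b* the higher in TG 1 and TG 2.

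Of the H2A variants, *H2afz* (H2A.Z, found at promoters) exceeded *H2afy* (macroH2A1, associated with repressed chromatin) and *H2afx* (H2A.X, phosphorylated next to DNA breaks). It was 1.82 ± 0.27 (SD, n = 7) above *H2afy* and 2.75 ± 0.37 above *H2afx* on the log2(FPKM + 0.5) scale, each in 7 of 7 papillomas (exact sign-flip permutation tests, two-sided, adjusted p = 0.0156 for each). *H2afy* was at 62.8, 59.6, 56.8 and 53.1 FPKM in CTR and at 58.3, 56.1 and 48.6 FPKM in TG. *H2afx* was at 33.0, 32.2, 44.5 and 25.1 FPKM in CTR and at 38.8, 15.6 and 25.0 FPKM in TG. Both overlapped between groups, and *H2afx* was highest within each group in the deeper library, CTR 3 or TG 1.

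Of the linker histones, *H1f0* (H1.0, typical of differentiated and slowly dividing cells) was above *H1fx* (H1x) by 4.41 ± 0.51 (SD, n = 7) on the log2(FPKM + 0.5) scale. *Hist1h1c* minus *H1f0* was -0.85 ± 0.42 on that scale and narrowed to -0.07 in TG 3. Each pair kept its order in 7 of 7 papillomas (exact sign-flip permutation tests, two-sided, adjusted p = 0.0156 for each). The smallest p these tests can give was reached for all 6 pairs, so the p-values do not rank them.

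**Figure D2:**
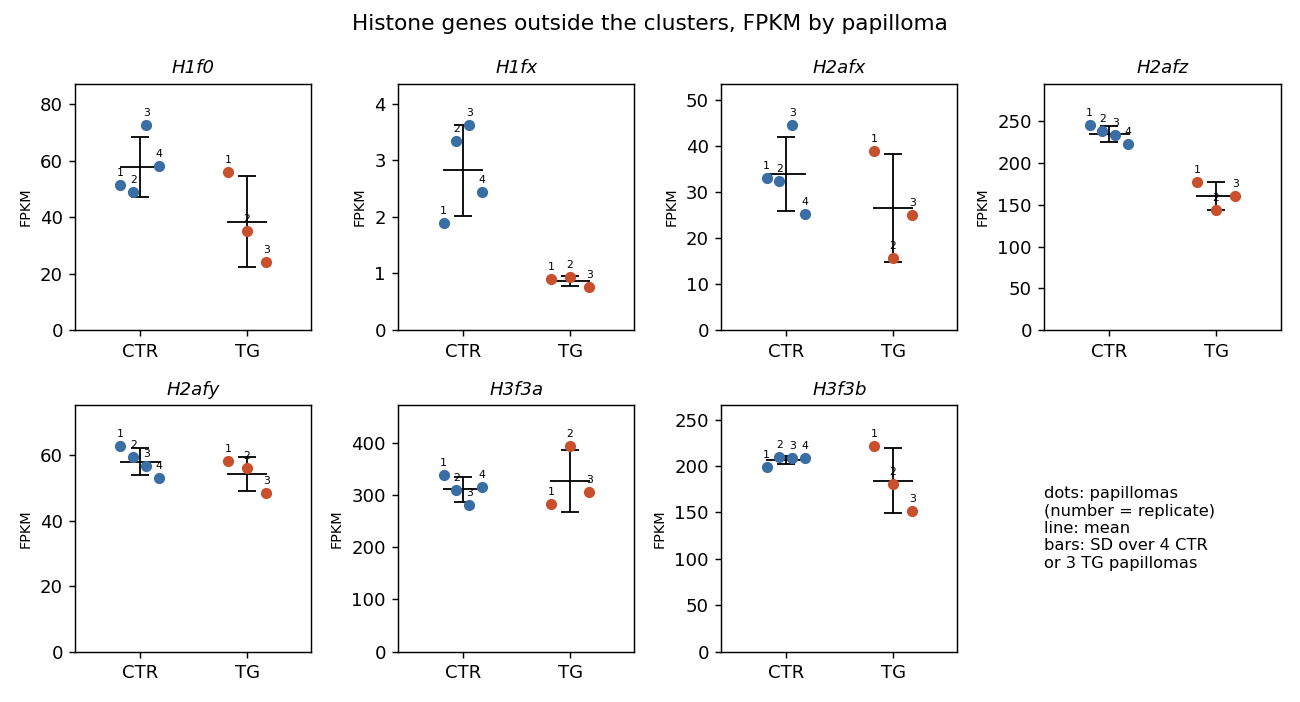
FPKM of the 7 histone genes outside the clusters in each papilloma (dots, numbered by replicate), with the mean and SD of 4 CTR and 3 TG papillomas. The TG dots of *H1fx* (0.756 to 0.935 FPKM) and *H2afz* (144 to 178 FPKM) all lie below the CTR dots, and the groups overlap in the other 5 genes.

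TG and CTR papillomas were then compared over all genes. Of 12299 genes tested with limma on log2(FPKM + 0.5), none passed an adjusted p of 0.05 in either direction (0% higher and 0% lower), and no member did. The induced *Nanog* was not called either, although its groups did not overlap, so the lack of calls does not show that the groups were alike. The study's own Cufflinks test reported genes upregulated in TG papillomas at an FDR below 0.05, *Nanog* among them. With sample quality weights in limma 49 genes were called higher and 36 lower, *H1fx* among those lower. Its low TG values led to the choice of the family, so nothing is read from that call. At an unadjusted p of 0.05 there were 598 genes higher and 241 lower in TG. Every TG value was above every CTR value in 606 genes (4.93%) and below in 274 (2.23%). Among the 36 tested members these counts were 3 and 2. Since the family was chosen on this contrast, nothing is read from the comparison of those shares. The median difference of the tested members was 0.08, close to the median of 0.06 over all genes tested, and 22 of the 36 differences were above 0, as were 7383 of the 12299. Quantile normalization turned the members' median to -0.08 and that of all genes to -0.03.

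The members with the lower values in TG were *H1fx* and *H2afz*. *H1fx* (chr6:87980421-87981482, minus strand) was at 1.88, 3.35, 3.63 and 2.44 FPKM in CTR and at 0.897, 0.935 and 0.756 FPKM in TG. All TG papillomas were below all CTR papillomas, with a mean 3.27-fold lower and a difference of -1.26 ± 0.24 (SE) on the log2(FPKM + 0.5) scale, between -1.40 and -1.14 when any 1 papilloma was left out. The depth behind it was small. The values corresponded to about 13, 20, 45 and 17 reads in CTR and 12, 6 and 5 reads in TG. The Cufflinks intervals of CTR 1 (0.839 to 2.93 FPKM) and CTR 4 (1.26 to 3.62 FPKM) overlapped that of each TG papilloma (for TG 1 0.379 to 1.42 FPKM). Those of CTR 2 and CTR 3 overlapped none. All these intervals cover counting error only. In GENCODE an antisense gene, *Gm5577*, overlaps *H1fx*. The libraries were stranded, but whether the counting used strand is not given in the sources used here, so reads of the 2 genes cannot be told apart.

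*H2afz* (chr3:137864599-137866922) was at 246, 238, 234 and 223 FPKM in CTR and at 178, 144 and 160 FPKM in TG. The groups did not overlap, and neither did their Cufflinks intervals, of which the lowest CTR bound was 216 FPKM and the highest TG bound 183 FPKM. These intervals cover counting error only, and 73.4% of the 40-base windows of *H2afz* were shared with other genes. The mean was 235 ± 9.58 FPKM (SD, n = 4) in CTR and 161 ± 16.7 FPKM (SD, n = 3) in TG. The difference was -0.55 ± 0.16 (SE) on the log2(FPKM + 0.5) scale and lay between -0.63 and -0.48 when any 1 papilloma was left out. Without TG 3, the papilloma with muscle and fibroblast markers, it was -0.55 for *H2afz* and -1.20 for *H1fx*. In bulk papillomas fewer cells of a type and less RNA per cell cannot be told apart.

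*H1f0* (chr15:79028212-79030500) was at 51.5, 48.8, 72.8 and 58.0 FPKM in CTR and at 56.0, 35.2 and 24.0 FPKM in TG. TG 2 and TG 3 were below all CTR papillomas and TG 1 was within their range. The difference of -0.65 ± 0.28 (SE) on the log2(FPKM + 0.5) scale became -0.36 without TG 3 and -0.96 without TG 1. In RPM, the implied reads scaled to the library total, a scale tried after the data were seen, *H1f0* was at 186, 142 and 94.1 in TG and at 200 to 257 in CTR and no longer overlapped. On that scale 3 members (*H1f0*, *H1fx* and *H2afz*) were lower without overlap, where 4.41% of all genes were, and 2 (*Hist1h2br* and *Hist1h2ak*) were higher, where 2.74% were. *H3f3b*, *H2afy* and *H3f3a* differed by -0.18 ± 0.18, -0.10 ± 0.15 and 0.06 ± 0.19 (SE) on the log2(FPKM + 0.5) scale, and *H2afx* by -0.41 ± 0.31.

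**Figure D3:**
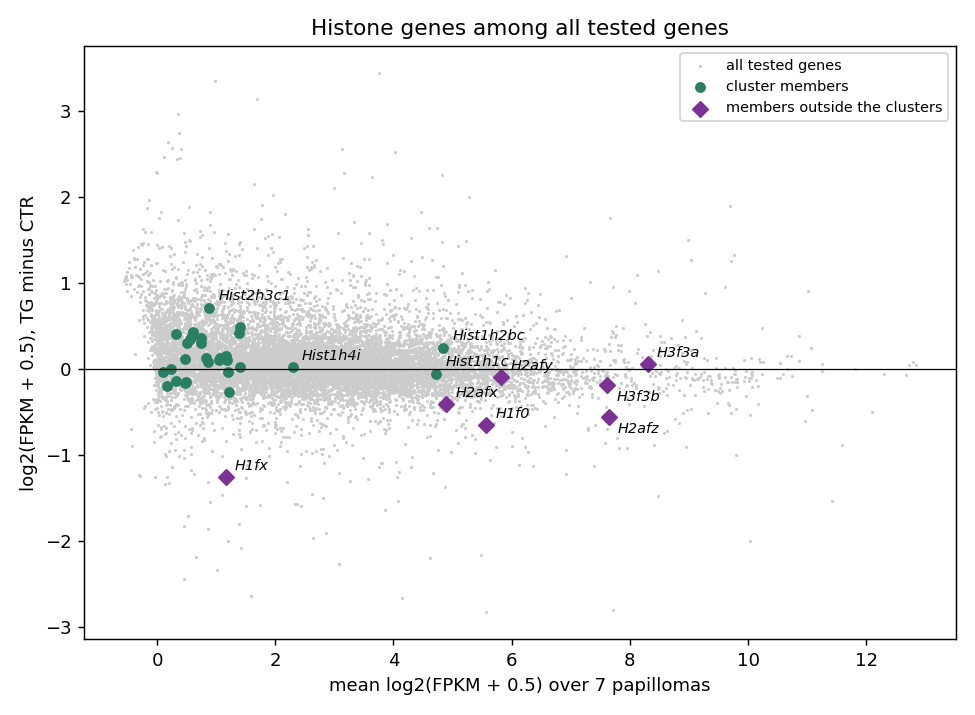
Difference of TG minus CTR in log2(FPKM + 0.5) against the mean level for the 12299 tested genes (grey), the 29 tested cluster members (circles) and the 7 genes outside the clusters (diamonds). *H1fx* (-1.26) lies lowest of the members, followed by *H1f0* (-0.65) and *H2afz* (-0.55), and the cluster members lie between -0.26 and 0.72.

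Of the clustered genes *Hist2h3c1*, *Hist1h2br* and *Hist1h2af* had every TG value above every CTR value. *Hist2h3c1*, an H3 gene (chr3:96246685-96248509), was at 0.673, 1.39, 1.16 and 0.842 FPKM in CTR and at 1.73, 1.98 and 2.16 FPKM in TG. Its difference was 0.72 ± 0.23 (SE) on the log2(FPKM + 0.5) scale and 0.53 after quantile normalization, after which its groups overlapped. Behind these values stood about 16.5 to 41.1 reads per CTR papilloma. All of its 40-base windows also belong to another annotated transcript, since in GENCODE *Gm20634* spans the gene on the same strand. *Hist1h2br*, an H2B gene listed at 2 loci of chromosome 13, 1 of which GENCODE names *Hist1h2bq*, was at 0.572 to 0.633 FPKM in CTR and at 0.920, 0.906 and 1.07 FPKM in TG, and 99.8% of its windows were shared. *Hist1h2af*, an H2A gene, was at 0.905 to 1.18 FPKM in CTR and at 1.67, 1.23 and 1.28 FPKM in TG, on about 1.8 to 5.6 reads in CTR, with 94.2% of windows shared. Neither kept its groups apart after quantile normalization. Each of the 3 genes depended on the processing in other ways too. In implied RPM the groups of *Hist2h3c1* and *Hist1h2af* overlapped. With upper-quartile scaling *Hist1h2af* overlapped and *Hist1h2ak*, another H2A gene, did not. *Hist1h2br* reached the level for testing only as the sum of its 2 loci.

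The remaining cluster members with high levels overlapped between groups. *Hist1h2bc* differed by 0.25 ± 0.24, *Hist1h1c* by -0.05 ± 0.16 and *Hist1h4i* by 0.02 ± 0.31 (SE) on the log2(FPKM + 0.5) scale. *Hist1h4i* was at 8.30 FPKM in TG 1 but at 3.16 and 3.31 FPKM in TG 2 and TG 3, below all CTR papillomas (3.59 to 5.29 FPKM). The mean levels of *Hist1h2bj*, *Hist2h2ac*, *Hist3h2a*, *Hist1h2an*, *Hist1h2ad*, *Hist1h2ai* and *Hist1h2ah* lay around 2 FPKM, and their differences ran from -0.26 ± 0.30 for *Hist1h2an* to 0.49 ± 0.27 for *Hist1h2bj*. For 21 of the 29 tested cluster members the mean was fewer than 10 implied reads.

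**Figure D4:**
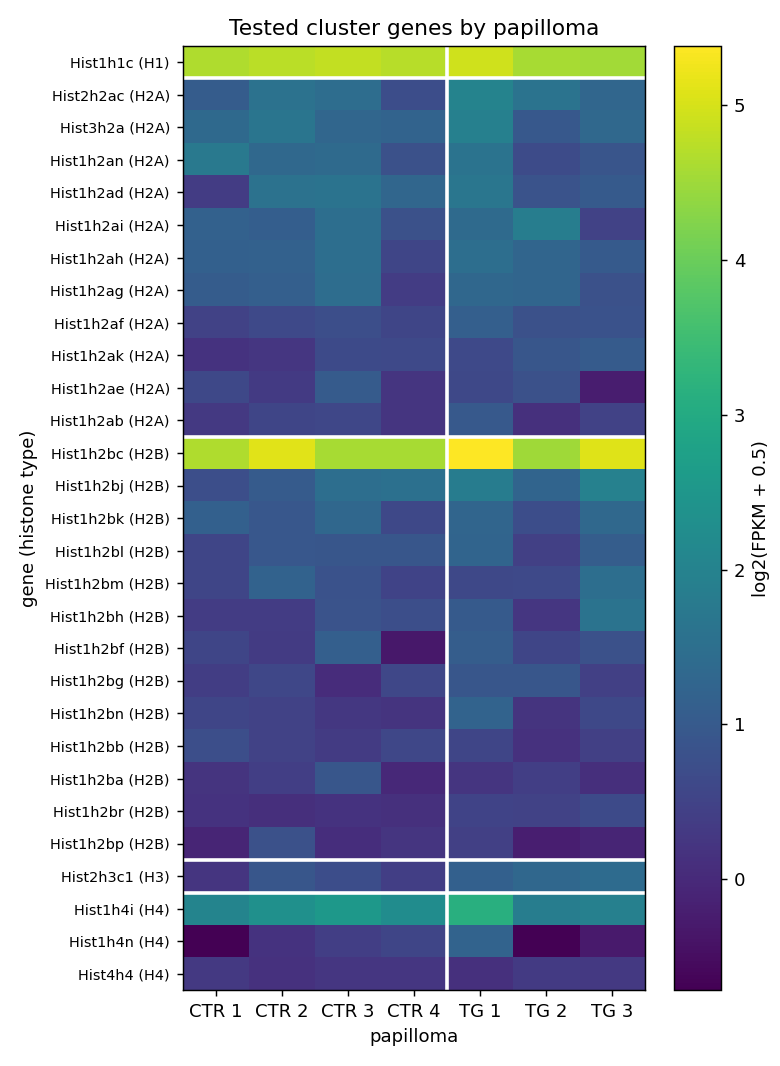
Level, as log2(FPKM + 0.5), of the 29 tested cluster members (rows, by histone type and mean level) in each papilloma (columns, CTR left and TG right of the white line). *Hist1h1c* and *Hist1h2bc* are the bright rows in every papilloma, *Hist1h4i* is brightest in TG 1 (8.30 FPKM), and every other row stays below 4 FPKM.

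The sum of the cluster members other than *Hist1h1c* and *Hist1h2bc* was 39.5, 45.0, 53.4 and 37.1 FPKM in CTR and 66.4, 39.6 and 45.6 FPKM in TG. The highest value of each group belonged to the libraries with more reads, CTR 3 and TG 1. Of the 29 tested cluster members 8 (27.6%) were highest within CTR in CTR 3 and within TG in TG 1, where 10.8% of all tested genes were. In implied RPM the same sum was 35.7 in CTR 3 and 47.5 in TG 1 against 26.5 to 38.7 in the other libraries, so TG 1 remained the highest and CTR 3 did not. The part of depth in these values was not tested. Without CTR 3 and TG 1, a choice made after the data were seen, 8 of 35 members lay lower in TG without overlap, 8.07% of all genes then tested doing so, and 6 higher, against 15.1%. Leaving out TG 1 alone gave 7 lower and 5 higher of 35 members, against 7.23% and 13.1% of all genes. Without TG 2 there were 2 and 7 of 36, against 2.97% and 9.88%, and without TG 3 there were 2 and 5 of 37, against 9.03% and 8.97%. *H1fx* and *H2afz* were among the lower members each time. That was fixed in advance, since leaving out papillomas cannot make groups overlap that are apart with all of them.

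The spread between CTR papillomas could be set against counting error only where reads were many. For the 7 genes outside the clusters the coefficient of variation over the 4 CTR papillomas was above the one expected from the implied reads, from 2.33% against 1.12% for *H3f3b* to 23.8% against 4.52% for *H2afx* and 18.6% against 1.95% for *H1f0*. It was 28.6% against 22.3% for *H1fx*. Of the cluster members with the most reads, *Hist1h1c* had 5.08% against 4.16% and *Hist1h2bc* 19.0% against 6.20%. For members with few reads the counting expectation was itself large, up to 113% for *Hist1h4n*, so a spread between mice was not detectable at this depth and nothing is read from their position.

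**Figure D5:**
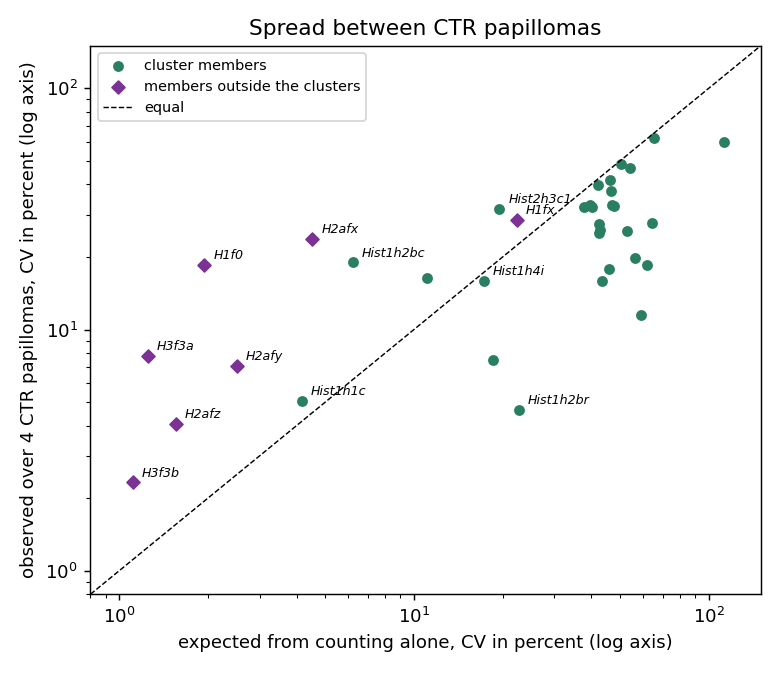
Observed coefficient of variation over the 4 CTR papillomas against that expected from the implied reads, both in percent on log axes, for 36 tested histone genes. Diamonds are the 7 genes outside the clusters and circles the cluster members, and the dashed line marks equality. The position along the horizontal axis follows the number of reads, from 1.12% for *H3f3b* to 113% for *Hist1h4n*.

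The promoters of the family, taken from RefSeq (GRCm38.p6) as short windows that span the start of the gene and lie mostly before it, were matched for 66 of the 74 members. A set of 4 letter strings was searched on both strands. CCAAT was in all windows of the clustered H1, H2A, H2B and H3 genes and in 25.0% of those of H4 genes, against 37.9% of all 27025 promoters. TATAAA was in 58.3% of the cluster windows against 14.2%. The octamer ATTTGCAT was in 7 of 17 H2A and 6 of 15 H2B windows against 1.8% of all, and AAACACA in 83.3% of H1 windows against 7.1%. Windows of neighbouring H2A and H2B genes transcribed away from each other overlap, so they are not independent. The promoters of 3 genes outside the clusters are shown because their genes differ in level and in the comparison of groups. That of *H3f3b* (chr11:116024455-116024754, minus strand) holds 4 CCAAT, 1 octamer and 1 TATAAA, that of *H2afz* (chr3:137864237-137864536, plus strand) 3 CCAAT, and that of *H1fx* (chr6:87981433-87981732, minus strand) none of the 4 strings. The windows of *H1f0* and *H2afy*, with mean levels of 49.5 and 56.5 FPKM and overlapping groups, also held none of the 4. A link of the strings to level or group was not tested. Capitals mark the strings on either strand.

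H3f3b: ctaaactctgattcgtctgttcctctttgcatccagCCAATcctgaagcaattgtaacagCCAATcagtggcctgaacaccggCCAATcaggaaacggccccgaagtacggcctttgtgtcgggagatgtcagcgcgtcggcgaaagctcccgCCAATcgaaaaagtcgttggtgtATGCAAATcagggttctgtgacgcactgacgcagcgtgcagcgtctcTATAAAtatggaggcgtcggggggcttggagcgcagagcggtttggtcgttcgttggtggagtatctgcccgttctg
H2afz: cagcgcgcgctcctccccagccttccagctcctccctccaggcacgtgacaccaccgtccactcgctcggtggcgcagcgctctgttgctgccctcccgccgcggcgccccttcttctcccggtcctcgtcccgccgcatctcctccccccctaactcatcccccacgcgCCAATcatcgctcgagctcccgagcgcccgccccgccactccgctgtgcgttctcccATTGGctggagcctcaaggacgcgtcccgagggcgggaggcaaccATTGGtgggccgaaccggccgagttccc
H1fx: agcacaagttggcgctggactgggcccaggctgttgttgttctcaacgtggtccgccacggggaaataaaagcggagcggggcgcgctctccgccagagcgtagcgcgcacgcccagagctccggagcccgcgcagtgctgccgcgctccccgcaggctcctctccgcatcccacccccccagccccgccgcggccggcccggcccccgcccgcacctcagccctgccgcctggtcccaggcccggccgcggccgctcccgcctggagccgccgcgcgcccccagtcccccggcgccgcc

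Genes that act on histones were set beside the family, in lists made with earlier results of these data known. None of them passed an adjusted p of 0.05 in limma in either direction. Of 14 factors of histone gene expression, 13 were tested. Each overlapped between groups, with a median difference of -0.03 on the log2(FPKM + 0.5) scale. *Ncbp1* and *Srrt* of the cap-binding complex were at 24.8 ± 4.07 and 27.3 ± 3.43 FPKM (SD, n = 4) in CTR and at 21.7 ± 0.698 and 25.1 ± 1.39 FPKM (SD, n = 3) in TG. *Slbp*, whose product binds the histone stem-loop, was at 12.6 ± 1.52 and 12.3 ± 0.264 FPKM.

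Of 21 histone chaperones and deposition factors 19 were tested. None was higher in every TG papilloma, against 4.93% of all genes, and 4 (21.1%) were lower, against 2.23%. These were *Chaf1b*, a subunit of the CAF-1 chaperone (7.74 ± 0.199 FPKM in CTR and 5.55 ± 0.206 FPKM in TG), *Nap1l1*, an H2A-H2B chaperone (92.8 ± 6.65 and 69.8 ± 12.3 FPKM), *Hat1*, which acetylates new H4 (29.8 ± 2.57 and 24.3 ± 1.38 FPKM), and *Rbbp7*, its partner (53.0 ± 4.32 and 44.6 ± 5.41 FPKM). The median of the list was -0.14.

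Of the 24 S-phase genes 4 (16.7%) were lower in every TG papilloma, against 2.23% of all genes, and none was higher, against 4.93%. Their median was -0.18, against 0.06 over all genes tested. *Tk1*, thymidine kinase, had a mean of 29.5 ± 4.10 FPKM in CTR and 18.8 ± 5.06 FPKM in TG, and *Ccna2*, cyclin A2, of 20.7 ± 3.33 and 14.8 ± 2.25 FPKM. The others were *Cdt1*, a replication licensing factor, and *Rrm2*, a ribonucleotide reductase subunit, with differences of -0.32 ± 0.16 and -0.20 ± 0.16 (SE). The median of the 10 mitosis genes was -0.36 and all 10 differences were below 0, as were 4916 of all 12299 tested. Every one of the 10 overlapped between groups. *Cdc20*, an activator of the anaphase-promoting complex, was at 41.2 ± 14.1 FPKM (SD, n = 4) in CTR and 27.9 ± 4.68 FPKM (SD, n = 3) in TG. Of the 9 other histone variant genes 4 were tested and overlapped, among them *H2afj* (37.9 ± 13.2 and 39.4 ± 17.9 FPKM) and *Cenpa*, the centromeric H3 (22.9 ± 4.35 and 18.4 ± 2.41 FPKM).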

How the data were processed

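Poly(A)+ RNA of 7 papillomas (4 CTR, 3 TG) was sequenced as stranded libraries with single reads of 40 bases. Per the labels and the study's methods, the authors aligned reads to mm10 with TopHat2 2.0.4, Bowtie 0.12.7 and SAMtools 0.1.16, keeping up to 5 hits per read, and deposited gene FPKM with intervals from Cufflinks 1.3.0. No counts were used, and reads were inferred from the half-width of each interval as that of 2 SDs of a Poisson count. About 65.1% to 66.8% of values below 50 came out whole within 0.02, so they are approximate, and they cover counting error only.

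Entries of 1 symbol were summed (6 members had more than 1 locus) and 162 symbols with a failed status were left out. Genes that averaged 0.5 FPKM or more were tested on log2(FPKM + 0.5), which understates changes of low genes, with limma 3.58.1 (trend, R 4.3.3) and Benjamini-Hochberg adjustment, in a script tested on simulated data. Level pairs were tested by exact sign-flip permutation. Groups were those of the labels, each papilloma of a different mouse. Members and lists were chosen with earlier results of these data known. Named were the 7 genes outside the clusters, the 10 cluster members with the highest mean, cluster members without overlap at a mean of at least 0.5 FPKM, up to 4 genes of each list (without overlap, otherwise the most abundant) and *Nanog*. *Slbp* and the genes named for a transcript end, a value of 0, an overlapping gene or an alternative setting were added after their values were seen. Sequences came from GENCODE M21 and RefSeq. Alternatives were pseudocounts, filters, scalings, limma settings, a replicate block, the highest entry of a symbol, every status kept and each papilloma left out.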

Additional observations from a re-analysis of the deposited data

Results flagged for a closer look

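Among 20 named members, values of the 4 CTR papillomas were examined for 1 that lay far from the other 3, by its gap to the nearest value as a share of the group's range. *H3f3b* in CTR 1, at 199 FPKM, was the lowest, with a gap of 0.912 of the range, above Dixon's critical value, although the 4 values spanned only 199 to 209 FPKM. *Hist1h2bc* in CTR 2, at 34.0 FPKM, was the highest, with a gap of 0.884 of the range. Chance alone marks about 1 in 20 such groups.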

How the results depend on the processing

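The 6 level pairs kept their direction and an adjusted p under 0.05 in all 66 repeats (largest adjusted p 0.0312, with 6 papillomas). With 1 papilloma left out this was fixed in advance, since each pair had the same order in 7 of 7 papillomas. The other settings keep the order of single genes within a papilloma, so only the pair of sums could have changed. The repeats are therefore no further support for the pairs. Genes called higher and lower in TG, 0 and 0, became 49 and 36 with sample quality weights. *H1fx* was among those lower, from which nothing is read, as its values led to the choice of the family. The calls became 1 higher without the 2 deeper libraries, and 0 to 9 higher and 0 to 8 lower when 1 papilloma was left out. Members lower in TG without overlap, 2, became 1 of 12 with a filter at a mean of 2 FPKM (2.4% of all genes), 5 of 69 with no filter (1.69%) and 8 of 35 without the deeper libraries (8.07%). Members higher, 3, became 0 with that filter (4.44%) and with quantile normalization (3.24%, and 5.54% lower, 2 members) and 6 without the deeper libraries (15.1%). With 1 papilloma left out they were 2 to 7 lower, where 2.93% to 9.03% of all genes were, and 3 to 7 higher, where 6.49% to 13.1% were. *Hist1h2br* was lost with the highest entry of a symbol, and *Hist1h2af* gave way to *Hist1h2ak* with upper-quartile scaling. The members' median became -0.082 with quantile normalization and was otherwise within 0.147, the spread between replicates, of 0.075. Differences of the 20 named members moved by more than their spread in 9 of 391 repeats and changed sign in 30. *H1fx* (-1.56 to -1.01), *H2afz* (-0.64 to -0.48) and *Hist2h3c1* (0.53 to 0.92) kept theirs. Same-numbered papillomas did not deviate together (correlations -0.186, 0.0431 and -0.146), and the replicate block, in which CTR 4 has no partner and adds nothing, gave 0 calls and a median of -0.002. The causes of these changes were not tested. At about 5 to 45 reads, depth limits *H1fx* and most cluster members.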
